A study of Capra hircus with 2 samples.

Results

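miR-21 was described here through the small RNA tags of dairy goat mammary gland that contain nt 2 to 17 of its mature 5p sequence. A tag is a distinct read sequence, deposited with the number of reads that have it. The set held 865 tags of the 659118 distinct tags in the pair of libraries. Of these, 629 were read in peak lactation (of 466727 tags) and 387 in late lactation (of 259250 tags). Shorter pieces and reads with an error inside nt 2 to 17 were not members. The deposited tags carry no names. The set was recognised as miR-21 because it was the only group of tags whose reads lay within 5% of the study's own listing of that name in both libraries, and because its leading tags carry the well known miR-21-5p sequence.

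Mature miRNAs are cut from both arms of a hairpin by Drosha and Dicer, and the strand that is kept is loaded into an Argonaute protein. Bases 2 to 8, the seed, pair with target mRNAs, so a shift of the 5′ end alters the targets whereas a shift of the 3′ end does not move the seed. miR-21 is among the most abundant miRNAs of many animal tissues, mammary gland included, and PDCD4, which restrains translation, is a textbook target of it. In the RefSeq gene table of the goat assembly ARS1.2, MIR21 is 1 miRNA gene of 92 nt that lies inside no other gene, between VMP1, which encodes an autophagy membrane protein, and LOC108638243.

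Mammary gland tissue of Capra hircus was taken by surgery at peak lactation (day 90 postpartum) and at late lactation (day 210) from dairy goats aged 4 years in lactation number 3. RNA of 5 goats was pooled for each stage, and 1 library per stage was sequenced. There were therefore no replicates. The differences between the stages have no test, and stage, pool and library cannot be told apart. Intervals below are exact 95% intervals. They cover counting error only, because there is 1 library per stage. PCR copies of a molecule are counted as separate reads, so the intervals can be too narrow even for that.

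Clean reads numbered 19044002 for peak and 7385833 for late lactation, so that 1 read stood for 0.0525 and 0.135 reads per 1000000 clean reads (RPM). A count of 0 allowed up to 3 reads, which is 0.158 RPM in peak and 0.406 RPM in late lactation. Filtering had removed 0.0494% of high-quality peak reads and 14.03% of high-quality late reads for 5′ adaptor sequence, and 0.759% and 4.14% for a length under 18 nt. Their part in the differences below was not tested. The tissue was not checked against marker miRNAs, as the tags are unnamed.

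The forms that carry most miR-21 reads share their 5′ end and differ at the 3′ end. They are shown with the seed in capitals.
22-nt form: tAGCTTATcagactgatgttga
23-nt form with C: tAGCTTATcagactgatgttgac
23-nt form with A: tAGCTTATcagactgatgttgaa
21-nt form: tAGCTTATcagactgatgttg
24-nt form with CA: tAGCTTATcagactgatgttgaca
24-nt form with CT: tAGCTTATcagactgatgttgact

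miR-21 had 569068 reads in peak lactation, which is 29882 RPM (29804 to 29959.5) or 2.99% of all clean reads. In late lactation it had 151184 reads, which is 20469.5 RPM (20366 to 20573) or 2.05%. The level in late lactation was 0.685 times that in peak lactation (0.681 to 0.689), a log2 ratio of -0.55 (-0.55 to -0.54). The level was thus 1.46-fold higher in the peak library, short of the 2-fold difference used by the study. In bulk tissue, fewer cells that hold the miRNA and less of it per cell cannot be told apart.

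To place this value, tags were put into groups by nt 2 to 17 of a leading tag, with leading tags taken in order of abundance. A leading tag needed no minimum of reads, so that many groups hold few reads. A tag that contains nt 2 to 17 of several leading tags counted for each. Among 6522 groups with at least 1 RPM in a library, 36.9% were at least 2-fold higher and 29.9% at least 2-fold lower in late lactation, and the median log2 ratio was 0.19. At 10 RPM or more in a library the order was opposite, with 26.4% of 1439 groups higher and 32.9% lower. The direction of this background thus depended on the limit. When library totals omitted each library's 10 leading tags, 51.1% of 13066 groups were higher and 20.2% lower. The limit of 1 RPM then used the smaller totals too, which admitted groups of fewer reads. The change of totals itself moves every log2 ratio by 0.09. A lower ratio than that of miR-21 was found in 37.8% of the 6522 groups. Among the 100 most abundant groups the median log2 ratio was -0.56, with 72 lower in late lactation and 52 below miR-21. The late-over-peak ratio of miR-21 therefore lay near the middle of those of the 100 most abundant groups.

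**Figure D1:**
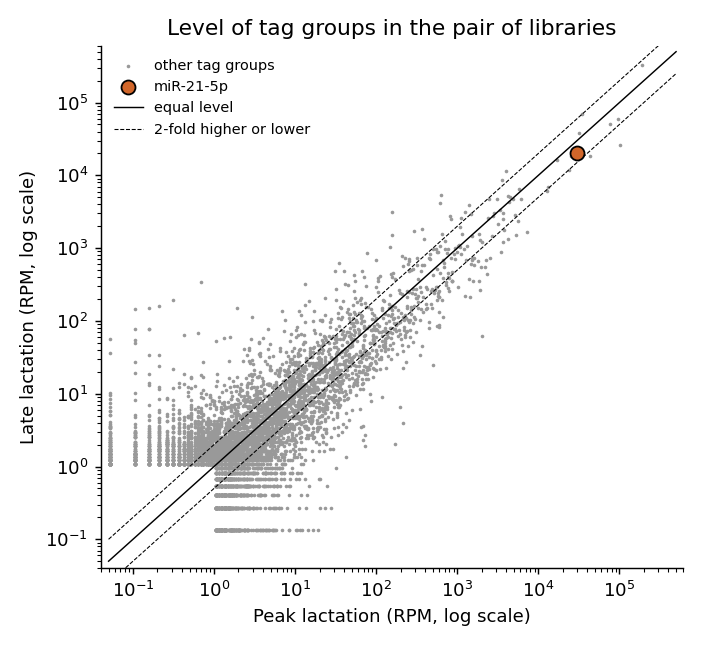
Level of each tag group in peak lactation (x axis, RPM, log scale) against late lactation (y axis, RPM, log scale), for the 5515 groups with reads in both libraries and at least 1 RPM in a library. miR-21-5p (orange) lies at 29882 and 20469.5 RPM, under the solid line of equal level and above the lower dashed line of a 2-fold difference.

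miR-21 ranked 8 among 199642 groups with reads in peak lactation and 7 among 121492 in late lactation. The groups next to it in either library were led by these tags, given by sequence because the deposited tags are unnamed, with bases 2 to 8 in capitals.
Rank 5 in peak, rank 8 in late: tGTAAACAtcctcgactggaagc
Rank 6 in peak: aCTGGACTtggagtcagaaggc
Rank 7 in peak, rank 5 in late: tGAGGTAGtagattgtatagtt
Rank 9 in both: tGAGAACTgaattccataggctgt
Rank 10 in peak: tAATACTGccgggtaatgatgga
Rank 11 in peak, rank 10 in late: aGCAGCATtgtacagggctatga
Rank 4 in late: tGAGGTAGtaggttgtgtggtt
Rank 6 in late: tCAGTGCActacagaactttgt

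In peak lactation the group just above miR-21, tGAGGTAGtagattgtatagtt, had 31648 RPM, and the group just below, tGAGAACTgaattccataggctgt, had 25148 RPM. In late lactation the group above was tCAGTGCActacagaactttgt with 25719 RPM and the group below tGTAAACAtcctcgactggaagc with 18438 RPM. None of these counting intervals overlapped that of miR-21. Without replicate libraries it is not known which neighbours would differ beyond the spread between animals.

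The group whose pair of levels was most like that of miR-21 was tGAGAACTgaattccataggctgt, at a distance of 0.294 in log2 RPM over the 2 libraries and a log2 ratio of -0.45. Next came tGTAAACAtcctcgactggaagc at 0.547, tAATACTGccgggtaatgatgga at 0.864, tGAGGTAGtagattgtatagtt at 0.881 and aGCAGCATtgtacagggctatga at 0.893. Their log2 ratios ran from -1.22 to 0.25.

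The sum over miR-21 tags hid forms that went in opposite directions. The 23-nt form with C was the leading tag of peak lactation, with 220493 reads or 11578 RPM, against 33173 reads or 4491 RPM in late lactation. Its log2 ratio was -1.37 (-1.38 to -1.35). The 22-nt form had 161551 reads or 8483 RPM in peak and 77469 reads or 10489 RPM in late lactation. The log2 ratio was 0.31 (0.29 to 0.32). This form was the leading tag of late lactation and was higher there, although the miRNA as a whole was lower.

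As a share of miR-21 reads, which does not depend on the library total, the form with C held 38.7% (38.6 to 38.9) in peak and 21.9% (21.7 to 22.2) in late lactation. The 22-nt form held 28.4% (28.3 to 28.5) and 51.2% (51.0 to 51.5). Among all single tags the form with C ranked 14 in peak and 25 in late lactation, and the 22-nt form 19 and 13. The order of the leading pair was thus opposite in the pair of libraries.

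The 21-nt form, which lacks the last A, had 131390 reads (6899 RPM, 23.1%) in peak and 27337 reads (3701 RPM, 18.1%) in late lactation, so that its log2 ratio was -0.90. The 23-nt form with A had 4763 reads or 250.1 RPM in peak and 3042 reads or 412 RPM in late lactation. Its share was 0.837% (0.813 to 0.861) and 2.01% (1.94 to 2.08), and its level had a log2 ratio of 0.72 (0.65 to 0.79). Of the major forms shown above, only the 22-nt form and the form with A had a higher RPM in late lactation.

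Both 24-nt forms that continue past the C were lower in the late library. The form with CA had 970.3 RPM in peak and 561 RPM in late lactation (log2 ratio -0.79). The form with CT had 734 and 209.6 RPM, a log2 ratio of -1.81, the lowest among the forms shown above.

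The other frequent ends were rare and are given as values. The 20-nt form had 2535 reads in peak and 816 in late lactation (0.445% and 0.540% of miR-21 reads). The 24-nt form with CC had 2395 and 372 reads, that with CG 1032 and 210 reads, and that with AA 931 and 225 reads. The 18-nt form had 554 and 244 reads. The 10 most frequent tags of each library, of which 8 were shared, held 98.3% of miR-21 reads in peak and 98.1% in late lactation, and the leading 3 tags held 90.2% and 91.3%.

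The long tail of rare tags mattered little for the level. Of the miR-21 tags, 60.7% in peak and 47.5% in late lactation had a single read. The 151 tags present in both libraries held 99.6% of miR-21 reads in peak and 99.7% in late lactation. The other 478 and 236 tags were read in a single library. Only 91 of the 865 tags had at least 1 RPM in a library. Of these, 19 (20.9%) were at least 2-fold higher and 32 (35.2%) at least 2-fold lower in late lactation, beside 30.7% and 40.1% of all 26175 tags at that level. At 10 RPM or more in a library, 28.2% of 5097 tags were higher and 38.2% lower. When the totals omitted the 10 leading tags, the split over all tags was 41.6% higher and 28.5% lower of 45427. That setting also lowered the reads needed for 1 RPM, so that the 91 tags were chosen at another limit. The median log2 ratio was -0.47 over the 91 tags and -0.44 over all tags, so that miR-21 tags did not stand out from tags in general by this measure. They share their sequence and are not independent.

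Lengths were compared among reads that start at nt 1 and have at most 30 nt (561967 in peak and 150015 in late lactation). Reads of 23 nt made up 40.3% in peak and 24.3% in late lactation, and reads of 22 nt 28.8% and 51.8%. Reads of 21 nt were 23.5% and 18.4%, and reads of 24 nt 6.60% and 4.38%. The most frequent length was 23 nt in the peak library and 22 nt in the late library.

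**Figure D2:**
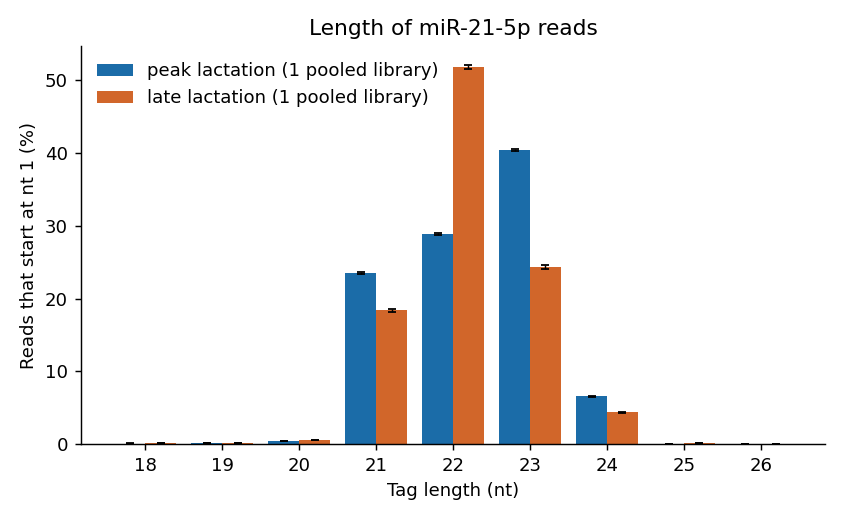
Share of miR-21-5p reads that start at nt 1 (y axis, %) by tag length (x axis, nt) in the peak (blue) and late (orange) library, with exact 95% counting intervals. The 22-nt bar is 28.8% in peak and 51.8% in late lactation, and the 23-nt bar 40.3% and 24.3%.

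The lengths were then read as 3′ ends. Reads that end at nt 22 with nothing added were 28.7% in peak and 51.6% in late lactation, and reads that end earlier with nothing added 24.1% and 19.1%. Reads that go past nt 22 with C as the first added letter were 45.6% and 26.4%. With A as the first added letter they were 1.04% and 2.24%, with T 0.104% and 0.0753%, and with G 0.0616% and 0.0747%. The goat hairpin sequence was not used here, so letters coded in the gene and letters added after cleavage cannot be told apart.

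Each longer form was also set against the form without its last letter. Of reads of the 22-nt form and its extension by C, 57.7% had the C in peak and 29.98% in late lactation. For the extension by A the shares were 2.86% (2.78 to 2.95) and 3.78% (3.65 to 3.91), by T 0.347% and 0.108%, and by G 0.192% and 0.112%.

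Starting from the form with C, an A followed in 7.73% (7.63 to 7.84) of reads in peak and 11.1% (10.8 to 11.4) in late lactation, and a T in 5.96% and 4.46%. A further C followed in 1.07% and 1.11%, and a G in 0.466% and 0.629%. An A was therefore more frequent in the late library after either of these stems, whereas a T was less frequent. After the 23-nt form with A the order for A was opposite. The form with AA had a log2 ratio of -0.68 and its stem 0.72. A 23-nt form with A, T or G is also the form with C with 1 mismatch at position 23, and its reads cannot be assigned to either. Beside 220493 and 33173 reads with C, those with T numbered 563 and 84. The lower share with T after nt 22 is thus not a measure of added letters alone.

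Among the 20 most abundant groups of the peak library, miR-21 was set beside the other 19. The points of reads found at another length in the late library were 23.1 for miR-21, rank 2 of 20, and ran from 3.34 to 28.7 with a median of 10.1 over the others. The mean length of miR-21 was 22.3 nt in peak and 22.1 nt in late lactation, and 16 of the other 19 groups were also shorter in late lactation (median change -0.13 nt, -0.15 nt for miR-21). The leading tag was the same in both libraries in 18 of the other 19 groups and was another in miR-21. With 1 library per stage none of this could be tested.

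**Figure D3:**
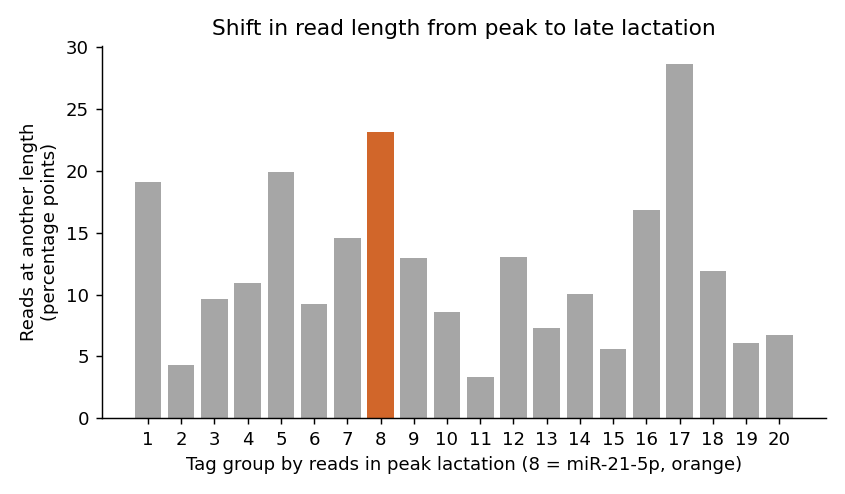
Percentage points of reads found at another length in late than in peak lactation (y axis) for the 20 most abundant groups, ordered by their reads in peak lactation (x axis). miR-21-5p (group 8, orange) had 23.1 points, and only group 17 had more, with 28.7.

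The 5′ end was nearly fixed. Of miR-21 reads of at most 30 nt, 99.6% in peak and 99.3% in late lactation started at nt 1, and 0.294% and 0.234% started at nt 2. Reads with 1 letter before nt 1 were 0.0912% (0.0835 to 0.0995) in peak and 0.337% (0.309 to 0.368) in late lactation. That letter was A in 5 reads of the peak library and 334 reads of the late library, or 0.000886% and 0.221%. It was G in 366 and 65 reads and C in 142 and 101 reads. An A before the start was more frequent in the late library in 18 of the other 19 abundant groups too, with medians of 0.000418% and 0.152%. The share of reads removed for 5′ adaptor sequence, given above, moved the same way, and its part was not tested.

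miR-21 was also read in tags longer than 30 nt, with further sequence before or after it. Such tags held 4635 reads or 0.814% (0.791 to 0.838) of miR-21 reads in peak lactation and 45 reads or 0.0298% (0.0217 to 0.0398) in late lactation. At least 12 letters stood before miR-21 (miR-21 second) in 3842 of these reads in peak and 7 in late lactation. Nothing stood before it (miR-21 first) in 784 and 26, and the other 9 and 12 reads had fewer than 12 letters before it. Of the tags over 30 nt, 20 held a further copy of miR-21, with 554 reads in peak and 1 in late lactation. Where miR-21 was first and no further copy was found, the sequence that follows was not identified. The 2 joined tags with most reads in peak lactation and the small RNA that stands before miR-21 in both are shown here.
Joined tag of 44 nt: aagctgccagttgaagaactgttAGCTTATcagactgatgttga
Joined tag of 43 nt: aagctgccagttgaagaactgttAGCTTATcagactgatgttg
Small RNA in front: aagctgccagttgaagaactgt
miR-21 joined to itself: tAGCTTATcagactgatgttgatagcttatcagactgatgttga

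The 44-nt tag had 2568 reads (135 RPM) in peak and 1 read (0.135 RPM) in late lactation. Its log2 ratio was -9.96, with a counting interval from -15.26 to -7.48. The 43-nt tag had 795 reads in peak and 0 in late lactation. The small RNA in front, exactly as shown, stood before miR-21 in 3415 reads of the peak library, which is 88.9% of the reads with miR-21 second, and in 1 read of the late library. As a tag of its own it had 4187 reads in peak and 1538 in late lactation. No tag was longer than 44 nt, so joins to a miR-21 form longer than 22 nt could not be seen for this small RNA.

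Of all reads of its group (9232 in peak and 1998 in late lactation, or 484.8 and 270.5 RPM), 39.4% in peak and 0.0501% in late lactation were joined with miR-21. Thus the partner itself was present in both libraries and the joined form almost only in the peak library. The 44-nt tag of miR-21 joined to itself had 297 reads in peak and 1 in late lactation. Over both libraries, 113 distinct sequences of at least 18 nt stood before miR-21. They had 3821 joined reads in peak lactation, and the 82 of them that were also read alone in that library held 99.1% of these.

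Over all tags, reads over 30 nt were 0.331% in peak and 0.135% in late lactation, and miR-21 tags were 7.35% and 0.453% of them. In the other 19 abundant groups the median share of reads over 30 nt was 0.0170% in peak and 0.0197% in late lactation, with a maximum of 0.318% in peak. The share was lower in late than in peak lactation in 13 of these 19 groups, so that a lower share in the late library was not particular to miR-21. Group 15 by reads in peak lactation had 0.318% in peak and 0.0283% in late lactation, and group 4 had 0.0459% and 0.00740%. The share of miR-21 was above that of each of the 19 groups in the peak library. Leaving these tags out moved the log2 ratio of miR-21 from -0.55 to -0.53.

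**Figure D4:**
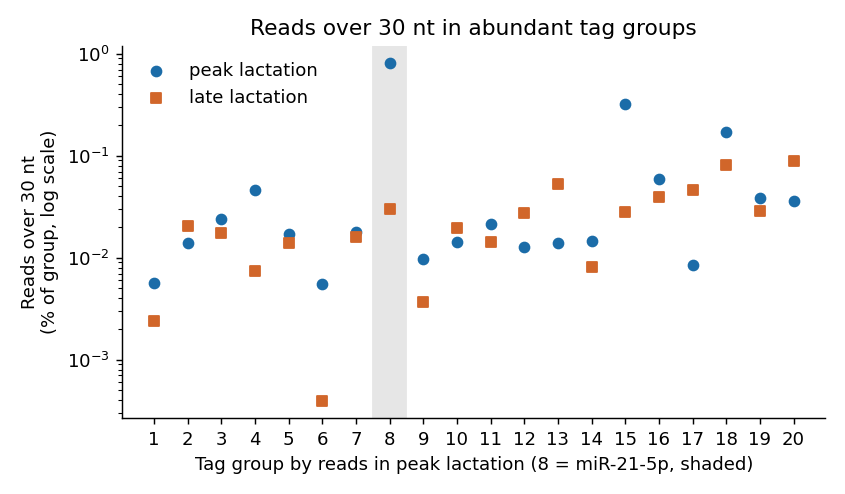
Share of each group's reads over 30 nt (y axis, %, log scale) in peak (blue circles) and late (orange squares) lactation, for the 20 most abundant groups ordered by reads in peak lactation (x axis). miR-21-5p (group 8, shaded) had 0.814% in peak and 0.0298% in late lactation, and the highest other peak value was 0.318%.

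Single mismatches to the 22-nt form were counted at each position. All 66 possible tags were seen in the peak library and 63 in the late library, with 1955 and 862 reads, or 1210.1 and 1113 per 100000 reads of the form. The median position had 42.7 in peak and 43.2 in late lactation. Position 9, counted from 1 at the 5′ end, was highest in peak lactation with 181 per 100000, and position 22 in late lactation with 139. A mismatch at position 22 is the same tag as the 21-nt form with 1 added letter other than A. These 175 reads in peak and 108 in late lactation cannot be assigned to either. The change C9T had 99.7 per 100000 in peak and 69.7 in late lactation, C9A 71.2 and 12.9, C13A 43.9 and 11.6, and A22T 53.9 and 72.3. The most frequent of these changes had fewer reads than the 23-nt forms with T or G, the rarest of the 23-nt forms with 1 added letter. C9T had 161 reads in peak and A22T 56 in late lactation, beside 310 reads with G in peak and 84 with T in late lactation. As A22T can itself be an added letter, C9T is the next change in late lactation, with 54 reads. These are raw reads, and the forms compared can stem from unlike numbers of reads. A 23-nt form with T or G can also be the form with C with a mismatch at position 23. That form had 220493 reads in peak and 33173 in late lactation. The comparison therefore does not separate added letters from mismatches.

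**Figure D5:**
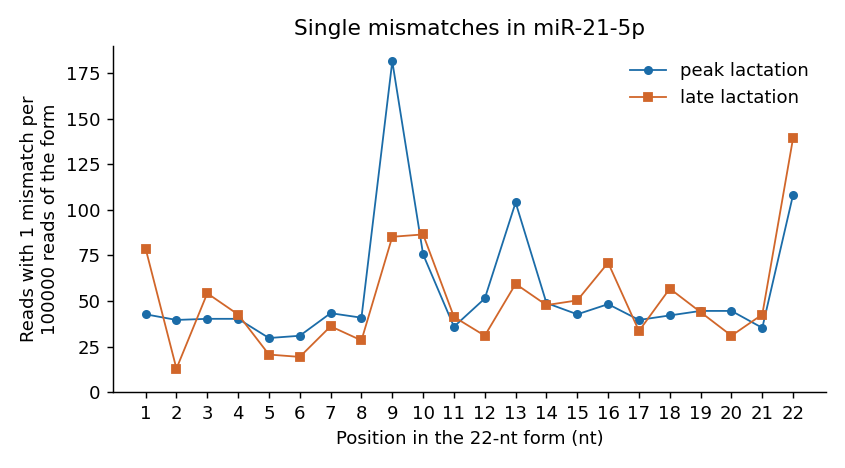
Reads with a single mismatch per 100000 reads of the 22-nt form (y axis) by position from the 5′ end (x axis, nt) in the peak (blue) and late (orange) library. Position 9 stands at 181 in peak lactation, position 22 at 139 in late lactation, and the medians are 42.7 and 43.2.

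Tags that shared the seed without belonging to miR-21 were few. Tags with the same bases 2 to 8 had 566445 reads in peak and 151006 in late lactation. Those outside the miR-21 set had 3430 and 855 reads, of which 3378 and 809 differed from it by 1 or 2 mismatches in nt 1 to 17. Only 7 reads in each library had more than 2 mismatches, insertions or deletions.

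The 3p arm of the hairpin was looked for as the tags that pair best with the 22-nt form. Of 21377 tags of 20 to 24 nt with at least 10 reads, 5 tied at the lowest duplex energy of -24.2 kcal/mol, and the next tag had -18.6. They share 1 core and differ at the 3′ end, and the leading tags are shown with bases 2 to 8 in capitals.
3p tag with most reads in peak: cAACAGCAgtcgatgggctgta
3p tag with most reads in late: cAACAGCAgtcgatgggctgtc
3p tag of 21 nt: cAACAGCAgtcgatgggctgt

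The tag ending in A had 47 reads in peak and 6 in late lactation, that ending in C 34 and 12, and the 21-nt tag 13 and 9. Over all tags with this core, the 3p arm had 128 reads (107 to 152) or 6.72 RPM in peak and 50 reads (37.1 to 65.9) or 6.77 RPM in late lactation. The log2 ratio was 0.01 (-0.49 to 0.49), so that no difference of the 3p arm was detectable at this depth. The 5p arm had 4446 reads per 3p read in peak and 3024 in late lactation. The 3p share of both arms was 0.0225% (0.0188 to 0.0267) and 0.0331% (0.0245 to 0.0436), and these intervals overlap.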

How the data were processed

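The authors ligated adaptors to small RNA, amplified it over 15 PCR cycles and sequenced it on an Illumina 1G Genome Analyzer. They filtered and trimmed the reads, collapsed identical reads and deposited the counts of reads per tag and per filtering step, not normalized. Versions of these tools were not given in the methods or labels. Counts were scaled to 1000000 clean reads per library. Intervals were Clopper-Pearson for shares, Poisson for counts and conditional binomial for ratios. With 1 library per stage no count test was run. edgeR 4.0.16 and DESeq2 1.42.0 under R 4.3.3 gave scaling factors only.

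No table of mature miRNA sequences was used. The study's listing served to find the name, and groups of tags, each formed around a leading tag by nt 2 to 17, took the place of the planned RefSeq miRNAs. The planned cell type markers were not matched, and "22-nt form" stands for the planned RefSeq length. Duplex energies came from RNAduplex of ViennaRNA 2.7.2. The other calculations used Python 3.11.15, numpy 2.4.6, pandas 2.3.3 and scipy 1.17.1. Log2 ratios and their intervals were tested on simulated counts, and the grouping of tags on a made-up RNA. The other steps were not tested in this way.

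The text names the 10 tags with most reads in each library, the 3 groups next above and below miR-21, the 5 nearest groups and the 20 most abundant groups. Joined tags, mismatches and 3p tags were picked with their values in view. The members and lists were chosen with earlier results of these data known.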

Additional observations from a re-analysis of the deposited data

How the results depend on the processing

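The log2 ratio of miR-21 was -0.55 as reported, -0.46 with totals that omit each library's 10 leading tags, -0.64 with TMM factors, -0.67 with median-ratio factors and -0.45 over tags that start with the whole 22-nt sequence. With the 22-nt tag alone it turned to 0.31. Chosen after seeing the data, the leading tag of peak lactation alone gave -1.37 and tags of at most 30 nt -0.53. TMM, median-ratio factors and the totals without 10 tags move every log2 ratio by -0.10, -0.13 and 0.09. Ranked as single tags, miR-21 was 14 in peak and 13 in late lactation. Among reads that start at nt 1 and match nt 1 to 18, the 22-nt form held 28.7% in peak and 51.7% in late lactation and the form with C 39.2% in peak lactation, or 38.9% with any start. Distinct tags were 247 in peak and 203 in late lactation at 2 or more reads per tag, and 364.8 in peak lactation thinned to the late depth (mean of 10 draws, 349 to 376). Groups at least 2-fold higher in late lactation were 2406 as reported, 19554 with no filter, 380 at 10 RPM and 6672 without the 10 most abundant tags, and groups lower 1950, 3630 and 473 under the first 3 of these. The groups compared numbered 6522 as reported, 298913 with no filter, 1439 at 10 RPM and 13066 without the 10 most abundant tags. Tags higher were 8045, 45648, 1437 and 18908, and tags lower 10486, 15894 and 1946. The other 24 of 50 alternatives moved their value by less than counting error or, for counts of groups and tags, by less than 1.5-fold.

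No paired analysis was possible because each stage has 1 library. Leaving out a library would empty a stage. The total of reads that match any RefSeq mature miRNA was not run, as no table of these was used. Depth limits the 3p arm and the tags of few reads.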

Other observations

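A variant of the 3p arm was read in the peak library. Tags that differ from the leading 3p tag by G6C, with positions counted from 1 at its 5′ end, had 32 reads in 8 tags, which is 20% (14.1 to 27.04) of the 160 3p reads with and without the change. In late lactation 0 of 50 reads had it, which allows a share of up to 6% by the limit of 3 reads and up to 7.11% by the exact 95% interval. The source of the variant was not tested.

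Shorter stems also carried an A that is not the next letter of miR-21. After nt 18 the A was found in 10.2% of reads in peak and 5.79% in late lactation, after nt 19 in 17.9% and 15.7%, and after nt 20 in 13.2% and 11.5%. These shares rest on few reads, for nt 18 on 63 reads with A in peak and 15 in late lactation. The values were lower in the late library. No counting intervals were computed for them, so no difference in direction from the A after nt 22 is drawn.

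The reads of miR-21 longer than 24 nt and of at most 30 nt were few and more frequent in late lactation. Those of 25 nt made up 0.0146% of reads that start at nt 1 in peak and 0.125% in late lactation, and those of 26 nt 0.00125% and 0.0227%.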
